A study of Mus musculus with 12 samples.

Results

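The E2F transcription factors and the pocket proteins that bind them were followed as a set of 10 genes, E2f1, E2f2, E2f3, E2f4, E2f5, E2f7, E2f8, Rb1, Rbl1 and Rbl2, chosen by gene symbol in a table of 19037 genes. All 10 were in the table and all 10 passed the filter on low counts, which left 13346 genes for testing. RNA came from AML12 cells, a mouse hepatocyte line that was established from animals carrying a transgene for human TGF-alpha. There were 3 libraries in each of 4 groups: control cells, cells given FK228 (romidepsin, an inhibitor of class I histone deacetylases, labelled HDI), cells overexpressing YF mutants of class I histone deacetylases, and cells with both FK228 and YF. A GFP code, unexplained in the labels, stands in the description of each control and each FK228 library, and a YF code in the others. The sources used here do not give the dose, the time or which enzymes were mutated. Whether the 3 libraries per group came from separate cultures is not stated, so p-values measure only their spread, which may be technical.

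As background, pocket proteins hold E2F factors in check until cyclin-dependent kinases phosphorylate them, and the freed E2F then switches on genes for DNA replication. E2F1, E2F2 and E2F3 are the activators, E2F4 and E2F5 work mainly as repressors together with the pocket proteins p107 (Rbl1) and p130 (Rbl2), and E2F7 and E2F8 are atypical repressors that bind DNA without a DP partner and act late in S phase. In liver, E2F7 and E2F8 are known for their part in the polyploidy of hepatocytes.

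Libraries held 23664446 to 26122998 estimated counts. Hdac1 lay between 91.8 and 113 CPM in the 6 libraries without YF and between 382 and 799 CPM in the 6 with YF, and within the latter it was 382 to 419 CPM with YF alone and 795 to 799 CPM with both treatments. RNA from the cell's own gene and from a mutant cannot be told apart in these counts, and the labels do not name the enzymes. Hdac8 was also higher in every YF library, at 40.8 to 44.4 CPM with YF and 37.8 to 39.3 CPM with both, against 15.1 to 18.4 CPM in the 6 libraries without YF. Of the hepatocyte markers, Hnf4a stood at 177 ± 7.51 CPM in control (mean ± SD, n = 3, as for every group mean below), whereas Alb, which encodes albumin, was at most 0.256 CPM on average in any group. Summed hepatocyte markers ranged from 661 to 785 CPM in control cells, 407 to 451 after FK228, 731 to 816 in YF cells and 399 to 437 after both treatments. The YF sum was carried by Trf (519 ± 51.6 CPM in control and 627 ± 32.1 CPM with YF), while Hnf4a was at 121 ± 5.81 CPM with YF and the median log2 fold change of the 9 tested hepatocyte markers was -0.45 (3 higher, 3 lower). With FK228 that median was -0.53 (2 higher, 5 lower). Summed biliary and progenitor markers, led by Spp1, were 5111 to 5170 CPM in control cells, 5673 to 6072 after FK228, 5585 to 5801 in YF cells and 4459 to 5270 after both treatments. Spp1 carried this sum, and of the 6 tested markers 3 were lower and 1 higher with FK228 (median -0.25) and likewise with YF (median -0.31), with Krt19 at 607 ± 82.6 CPM in control, 173 ± 6.84 CPM with FK228 and 284 ± 24.1 CPM with YF. Summed macrophage and leukocyte markers (8 of 8 in the table, with Cd14 the most abundant) were 136 to 182 CPM in control cells, 48.4 to 53.2 after FK228, 108 to 131 in YF cells and 61.4 to 71.8 after both treatments. The sum followed Cd14 (154 ± 23 CPM in control and 21.2 ± 1.9 CPM with FK228) and went against most of the list, since 4 of 6 tested markers were higher and 1 lower with FK228 (median 1.86), with Cd68 at 2.53 ± 0.391 CPM in control and 22.8 ± 3.43 CPM with FK228. Summed fibroblast and stellate markers, led by Vim, were 511 to 550, 687 to 755, 461 to 463 and 600.5 to 626 CPM in the same order. With YF this sum was lower, but of the 4 tested fibroblast and stellate markers 1 was higher and 1 lower (median 0.58). With FK228, 3 of these 4 were higher and none lower (median 1.11). The 6 endothelial markers together stayed at or below 2.64 CPM. In control no defining marker of hepatocytes or of biliary cells (7 of 8 in the table) was at 0 in the whole group, and 1 macrophage, 1 fibroblast and 1 endothelial marker was. A marker above 0 could still rest on very few counts, as did Alb (3) and Prom1 (1) summed over the control libraries. The part of these shifts in the values below was not tested.

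Positions are those of RefSeq on GRCm38.p6. The activator genes are E2f1 at chr2:154559400-154569892 on the minus strand, E2f2 at chr4:136172274-136196057 on the plus strand and E2f3 at chr13:29906575-29986064 on the minus strand. E2f4 is at chr8:105297663-105305370 and E2f5 at chr3:14578602-14606309, both on the plus strand. E2f7 is at chr10:110745439-110787384 on the plus strand and E2f8 at chr7:48866429-48882073 on the minus strand. Rb1 is at chr14:73192858-73325951 and Rbl1 at chr2:157145893-157204534, both on the minus strand, and Rbl2 is at chr8:91070057-91123844 on the plus strand. In the GENCODE M21 annotation of the same build, exons of 5 of these genes share bases with exons on the opposite strand: 26 bases for E2f5, 86 for E2f7, 610 for E2f8 with Gm2788, 408 and 488 for Rb1 with Lpar6 and Rcbtb2, and 693 and 892 for Rbl2 with Aktip and Gm45464. Whether the counting used strand is not given in the sources used here, so reads in those stretches cannot be told apart.

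Several E2F and pocket protein genes are known targets of E2F itself, and the sequence just upstream of the start site shows the letters such binding uses. The RefSeq promoter table (GRCm38.p6) held a window at the gene's own 5′ end, or within 1 base of it, for 5 of the 10 genes. The windows for E2f1 and E2f8, whose start sites lie 466 and 477 bases from the gene's 5′ end, were not read. Further windows of E2f2 and E2f3, with start sites 8508 and 1673 bases from that end, were not read either. E2f4, E2f5 and Rb1 had no entry. The 250 bases before the start are shown for the 5 genes, 5′ to 3′ on the gene's strand, because 3 of these genes were called lower with FK228 and 2 were not called. Capitals mark an E2F site (TTTCCCGC, TTTCGCGC, TTTGCCGC or TTTGGCGC on either strand) or a CHR element, the cell cycle homology region bound by MuvB (TTTGAA on either strand).
Rbl1, chr2:157204535-157204784, minus strand: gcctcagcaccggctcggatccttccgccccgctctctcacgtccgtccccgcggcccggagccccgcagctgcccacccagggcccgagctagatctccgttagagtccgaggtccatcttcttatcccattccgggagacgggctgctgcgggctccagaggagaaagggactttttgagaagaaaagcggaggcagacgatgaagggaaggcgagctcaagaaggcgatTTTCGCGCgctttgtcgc
E2f3, chr13:29986064-29986313, minus strand: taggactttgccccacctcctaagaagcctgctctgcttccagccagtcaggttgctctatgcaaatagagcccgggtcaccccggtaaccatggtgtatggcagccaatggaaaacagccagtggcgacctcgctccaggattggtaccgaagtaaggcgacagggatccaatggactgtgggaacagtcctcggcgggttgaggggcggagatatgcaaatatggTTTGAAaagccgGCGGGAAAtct
E2f7, chr10:110745189-110745438, plus strand: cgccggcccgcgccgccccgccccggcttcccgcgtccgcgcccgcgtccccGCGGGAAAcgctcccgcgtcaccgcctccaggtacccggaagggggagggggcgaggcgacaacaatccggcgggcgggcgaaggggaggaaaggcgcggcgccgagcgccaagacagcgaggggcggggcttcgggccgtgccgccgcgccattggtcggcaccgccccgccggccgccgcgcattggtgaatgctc
E2f2, chr4:136172024-136172273, plus strand: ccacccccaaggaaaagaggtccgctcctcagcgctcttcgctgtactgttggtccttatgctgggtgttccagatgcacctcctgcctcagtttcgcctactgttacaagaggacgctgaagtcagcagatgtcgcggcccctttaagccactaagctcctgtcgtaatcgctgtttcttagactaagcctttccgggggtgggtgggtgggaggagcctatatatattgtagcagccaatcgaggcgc
Rbl2, chr8:91069807-91070056, plus strand: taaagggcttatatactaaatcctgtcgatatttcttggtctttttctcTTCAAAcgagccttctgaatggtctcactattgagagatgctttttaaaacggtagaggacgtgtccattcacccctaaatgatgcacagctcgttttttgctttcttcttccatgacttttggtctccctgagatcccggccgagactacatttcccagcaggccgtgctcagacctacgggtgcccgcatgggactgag

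Counted from the start site, with negative positions before it, Rbl1 carries its E2F site at -18 to -11, E2f3 at -11 to -4 and E2f7 at -198 to -191. The E2F site of E2f2 lies after the start, at 40 to 47, and is not among the letters shown. In all, 4 of the 5 windows of 300 bases held an E2F site, against 2.26% of 32851 RefSeq windows of that length. That share covers all windows, also those away from a gene's 5′ end, which were not read for the 10 genes. Rbl2 had no E2F site and carried a CHR element at -201 to -196, and E2f3 had another at -23 to -18 beside its E2F site. CHR letters are common, in 17.9% of all windows. A match describes letters in a window and shows no binding.

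Levels of different genes are compared per length, in the authors' TPM. In control cells E2f4 was the most abundant of the 10 at 50.2 ± 0.656 TPM, followed by E2f5 (21.5 ± 0.856), E2f8 (17.1 ± 1.3), Rbl1 (10.1 ± 1.47), E2f1 (9.67 ± 0.541), Rb1 (8.45 ± 0.382), Rbl2 (8.06 ± 0.651), E2f3 (6.12 ± 0.536), E2f7 (2.23 ± 0.548) and E2f2 (0.753 ± 0.0839). The libraries of Rbl1 overlapped those of E2f1, and those of Rb1 overlapped those of Rbl2, so these neighbours did not differ beyond their spread. The other neighbours in the control order did not overlap. With FK228, Rb1 moved to rank 3 at 16.4 ± 2 TPM, while E2f8 (4.3 ± 0.72), E2f3 (3.88 ± 0.247) and Rbl1 (3.58 ± 0.786) became neighbours whose libraries overlapped. E2f4 stayed first in all 4 groups, at 51.5 ± 1.68 TPM with FK228, 51.6 ± 2.32 with YF and 51.8 ± 2.31 with both.

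The summed TPM of the 7 E2F genes was 108 ± 2.73 in control cells, 92.6 ± 4.63 after FK228, 117 ± 1.02 in YF cells and 99.2 ± 1.89 after both. E2f4 and E2f5, the repressor pair, made up 66.6 ± 1.8% of that sum in control cells, 83.8 ± 0.393% after FK228, 64.7 ± 0.911% in YF cells and 83.1 ± 0.632% after both treatments. The atypical pair E2f7 and E2f8 went from 18 ± 1.22% in control to 5.08 ± 0.577% with FK228, and was 19 ± 0.973% with YF and 6.3 ± 0.453% with both. The 3 activators made up 15.4 ± 0.834%, 11.1 ± 0.207%, 16.3 ± 0.168% and 10.6 ± 0.343% in the same order. Among the pocket proteins, Rb1 held 31.8 ± 0.989% of the summed TPM in control and 60.3 ± 0.735% with FK228, while the share of Rbl1 was 37.8 ± 3.03% and 13.1 ± 1.13%. With YF the shares of Rb1 and Rbl1 were 36.4 ± 2.02% and 35.3 ± 1.71%, and with both treatments 65.7 ± 0.689% and 9.77 ± 0.66%. These shares describe RNA and carry no test.

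**Figure D1:**
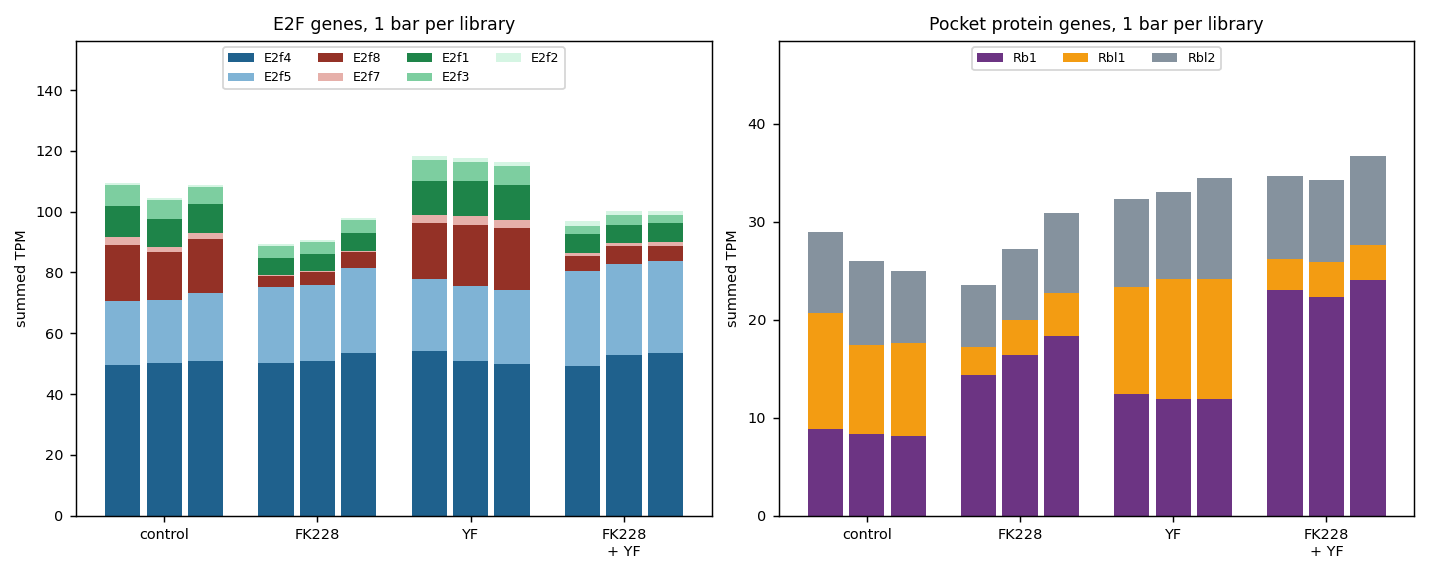
Summed TPM of the 7 E2F genes (left) and the 3 pocket protein genes (right), 1 stacked bar per library, ordered by group. E2f4 forms the lowest block, with group means of 50.2 to 51.8 TPM, the E2f8 block shrinks in the 6 libraries with FK228, and Rb1 makes up most of the right-hand bars in those libraries.

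In cells without YF, FK228 was set against control. The activators E2f1 and E2f3, the atypical E2f7 and E2f8, and Rbl1 fell, and Rb1, E2f5 and E2f4 rose, which made 8 of 10 genes called (5 lower, 3 higher). Of all genes tested, 68.8% were called (35.5% lower and 33.2% higher), and 8 of 10 is close to that share. The median log2 fold change of the 10 genes was -0.33, against -0.02 over all genes tested. In the same 8 genes the libraries of the groups did not overlap, which held for 69.6% of all genes. In bulk RNA, a lower level per cell and fewer cells in a phase of the cycle that expresses the gene cannot be told apart. Summed hepatocyte markers were lower in these libraries, as given above, with Hnf4a at 50.6 ± 3.32 CPM.

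The 2 atypical E2F genes changed most. E2f8 stood at 51.8, 44.5 and 52.6 CPM (a count per library total, TMM-scaled) in control replicates 1 to 3 and at 12, 13.3 and 14.3 CPM with FK228. The FK228 libraries were all far below the lowest control library, and the log2 fold change was -1.91 ± 0.09 (± SE of the fit, adjusted p = 1.81e-13, edgeR). E2f7 went from 13, 8.21 and 9.76 CPM to 2.29, 1.7 and 2.27 CPM, a log2 fold change of -2.30 ± 0.18 (adjusted p = 8.3e-10). Control replicate 1 was the highest control library for E2f7, and the groups did not overlap.

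Among the activators, E2f1 was at 22.2, 20 and 21.8 CPM in control and at 14.4, 13.1 and 12.7 CPM with FK228 (-0.67 ± 0.08, adjusted p = 3.2e-07). E2f3 was at 26.6, 23.5 and 23.1 CPM in control and at 16.6, 15.7 and 15.8 CPM with FK228 (-0.61 ± 0.08, adjusted p = 2.01e-06). Both were lower in 3 of 3 FK228 libraries. E2f2, the activator with the lowest level, was at 3.29, 2.7 and 2.53 CPM and at 3.22, 2.55 and 2.4 CPM, so its groups overlapped. Its log2 fold change of -0.06 ± 0.17 was not called (adjusted p = 0.768), with a 95% interval from -0.42 to 0.30, and its sign turned when control replicate 1 (0.06), FK228 replicate 2 (4.9e-05) or FK228 replicate 3 (0.02) was left out.

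The repressor pair moved up by smaller amounts. E2f5 went from 28.4, 28 and 31.8 CPM to 39.2, 37 and 37.8 CPM (0.37 ± 0.07, adjusted p = 8.42e-05), with every FK228 library above every control library. E2f4 was at 76.5, 77.5 and 82.6 CPM in control and 91.1, 86.2 and 82.7 CPM with FK228, groups that were barely apart. Its log2 fold change of 0.14 ± 0.06 passed the test (adjusted p = 0.0388), but the call ended without control replicate 1 (0.11), control replicate 2 (0.12), FK228 replicate 1 (0.12) or YF replicate 3 (0.13), with adjusted p of 0.0509 to 0.114. In TPM the E2f4 libraries of the 2 groups overlapped, so the 2 scales differ for this gene.

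The pocket proteins went 3 ways. Rb1, the retinoblastoma gene, was at 33.9, 31.9 and 32.7 CPM in control and at 64.3, 68.8 and 70.2 CPM with FK228, a 2.06-fold rise (1.04 ± 0.06, adjusted p = 2.52e-12). Rbl1, which encodes p107, was at 43.3, 31.1 and 33.8 CPM in control and at 12.2, 14.3 and 16.5 CPM with FK228 (-1.34 ± 0.12, adjusted p = 3.64e-08). Rbl2, which encodes p130, was at 33.5, 34.7 and 31.3 CPM and at 30.2, 32.2 and 32.9 CPM, with overlapping groups. Its difference of -0.06 ± 0.07 was not called (adjusted p = 0.458), and its 95% interval ran from -0.22 to 0.09, which leaves out a change as large as that of Rb1 or Rbl1.

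**Figure D2:**
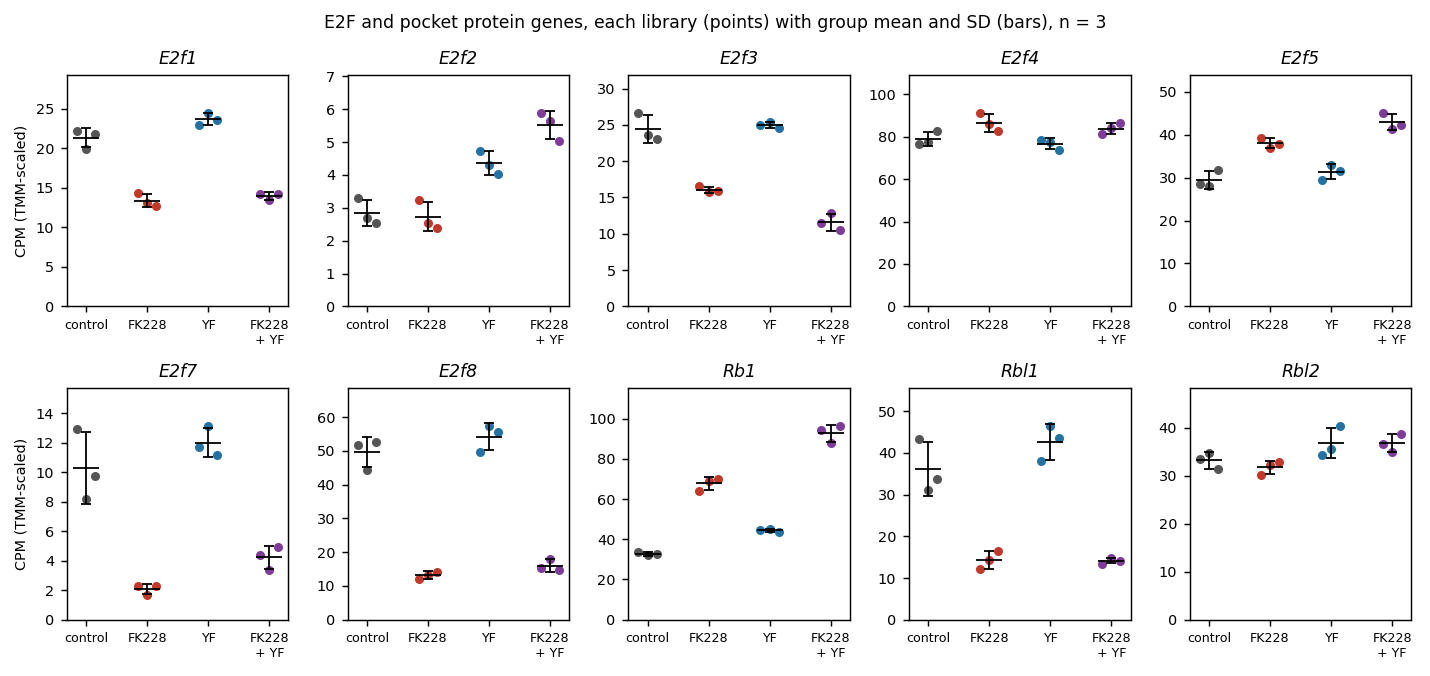
CPM in each of the 12 libraries for the 10 genes, 1 panel per gene with its own scale from 0, with points for libraries, long bars for the group mean and whiskers for the SD (n = 3). Rb1 is higher in every treated group than in control, E2f7, E2f8 and Rbl1 are low in both groups with FK228, and E2f2 is higher in both groups with YF.

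In cells with YF, FK228 plus YF was set against YF. Neither group was in the comparison above, but a single fit to all 12 libraries gave the spread for both comparisons. Of the 10 genes 9 were called (5 lower, 4 higher), beside 70.6% of all genes (35.9% lower, 34.7% higher), and the libraries of 9 did not overlap, as in 75.3% of all genes. The same 5 genes fell: E2f1 (-0.76 ± 0.08), E2f3 (-1.11 ± 0.09), E2f7 (-1.50 ± 0.16), E2f8 (-1.76 ± 0.09) and Rbl1 (-1.59 ± 0.12). Rb1 rose by 1.06 ± 0.06, close to its change without YF, and E2f5 by 0.45 ± 0.07. In all, 8 of the 10 genes were called in the same direction in both comparisons, as were 54.6% of all genes tested.

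Rbl2 again had overlapping groups, at 34.3, 35.6 and 40.3 CPM with YF and 36.7, 35 and 38.6 CPM with both (0.00 ± 0.07, adjusted p = 0.991, 95% interval from -0.15 to 0.15). E2f2 was called higher (0.34 ± 0.15, adjusted p = 0.048) and E2f4 too (0.13 ± 0.06, adjusted p = 0.0493), and both calls were fragile. For E2f2 the call was lost when any of 6 libraries was left out: YF replicate 2 (0.33) or 3 (0.28), control replicate 2 (0.34) or 3 (0.34), and replicate 1 (0.29) or 2 (0.33) of both treatments. That of E2f4 ended without any of 10 of the 12 libraries, the exceptions being FK228 replicate 1 and the replicate 1 library of both treatments, with log2 fold changes of 0.10 to 0.14 and adjusted p of 0.0501 to 0.212. Without a count filter both calls ended (adjusted p = 0.0823 for E2f2 and 0.118 for E2f4), and in TPM the libraries of both genes overlapped between the groups.

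Without FK228, YF cells were set against control. Rb1 and E2f2 rose and no member fell, so 2 of 10 genes were called, beside 32.6% of all genes (18% higher, 14.6% lower). Rb1 was at 44.6, 45.2 and 43.5 CPM with YF, each above the highest control library at 33.9 CPM (0.44 ± 0.06, adjusted p = 1.29e-05). E2f2 was at 4.74, 4.31 and 4.04 CPM with YF, each above the highest control library at 3.29 CPM (0.62 ± 0.16, adjusted p = 0.00533). The median log2 fold change of the 10 genes was 0.15, against 0.01 over all genes.

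The 8 other members were not called with YF, with log2 fold changes from -0.04 for E2f4 to 0.24 for Rbl1. The 95% intervals were -0.01 to 0.31 for E2f1, -0.14 to 0.20 for E2f3, -0.05 to 0.30 for E2f8, -0.09 to 0.53 for E2f7 and 0.00 to 0.48 for Rbl1. E2f1 libraries did not overlap between YF (22.9, 24.4 and 23.6 CPM) and control, as in 44% of all genes, and its adjusted p was 0.15. In TPM the YF libraries of E2f1, E2f5, E2f8 and Rbl2 were all above those of control. In CPM those of E2f5, E2f8 and Rbl2 overlapped, so the 2 scales differ for these genes. The share of all genes apart in TPM was not counted. Control replicate 1 was the highest control library for E2f7 and Rbl1, and without it both were called higher (0.42, adjusted p = 0.0255, and 0.39, adjusted p = 0.00355), which raised the count of members called from 2 to 4.

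In cells with FK228, FK228 plus YF was set against FK228. Of the 10 genes 6 were called higher and 1 lower, beside 52.9% of all genes (26.6% higher, 26.3% lower), and the libraries of 7 did not overlap, as in 60.1% of all genes. Rb1 reached 94.2, 87.9 and 96.1 CPM with both treatments, above every FK228 library (0.45 ± 0.06, adjusted p = 1.21e-06), beside 0.44 without FK228. E2f2 reached 5.88, 5.65 and 5.04 CPM (1.02 ± 0.16, adjusted p = 1.9e-05). E2f7 rose from its FK228 level to 4.38, 3.39 and 4.95 CPM (1.02 ± 0.20, adjusted p = 0.000297), a 2.03-fold difference that left it below every control library. E2f3 went the other way, to 11.4, 12.8 and 10.5 CPM, and was the 1 member called lower (-0.47 ± 0.09, adjusted p = 0.000177).

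The remaining calls in this comparison were small and changed with single libraries and with the method. E2f5 (0.18 ± 0.07, adjusted p = 0.0364) lost its call without any FK228 library (0.18, 0.14 and 0.17 without replicates 1, 2 and 3), without any library of both treatments (0.14, 0.19 and 0.18) and without YF replicate 3 (0.17), without a count filter (adjusted p = 0.126) and with DESeq2 (0.0544). E2f8 (0.28 ± 0.10, adjusted p = 0.0212) lost it without FK228 replicate 1 (0.20), FK228 replicate 2 (0.28) or the replicate 2 library of both treatments (0.17) and with limma-voom (adjusted p = 0.0501), and its TPM libraries overlapped. Rbl2 (0.21 ± 0.07, adjusted p = 0.0204) lost it without FK228 replicate 1 (0.16), FK228 replicate 2 (0.20) or the replicate 3 library of both treatments (0.17), and without a count filter (adjusted p = 0.0594). Without FK228 replicate 1 or FK228 replicate 2 the count of members called went from 7 to 4. E2f1 (0.06), E2f4 (-0.05) and Rbl1 (-0.02) were not called, with 95% intervals of -0.12 to 0.24, -0.17 to 0.07 and -0.29 to 0.26. Of the 10 genes, Rb1 and E2f2 were called higher both in this comparison and in YF versus control. These comparisons share no group but take their spread from the same fit. Of all genes, 20.9% were called in 1 direction in both comparisons.

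**Figure D3:**
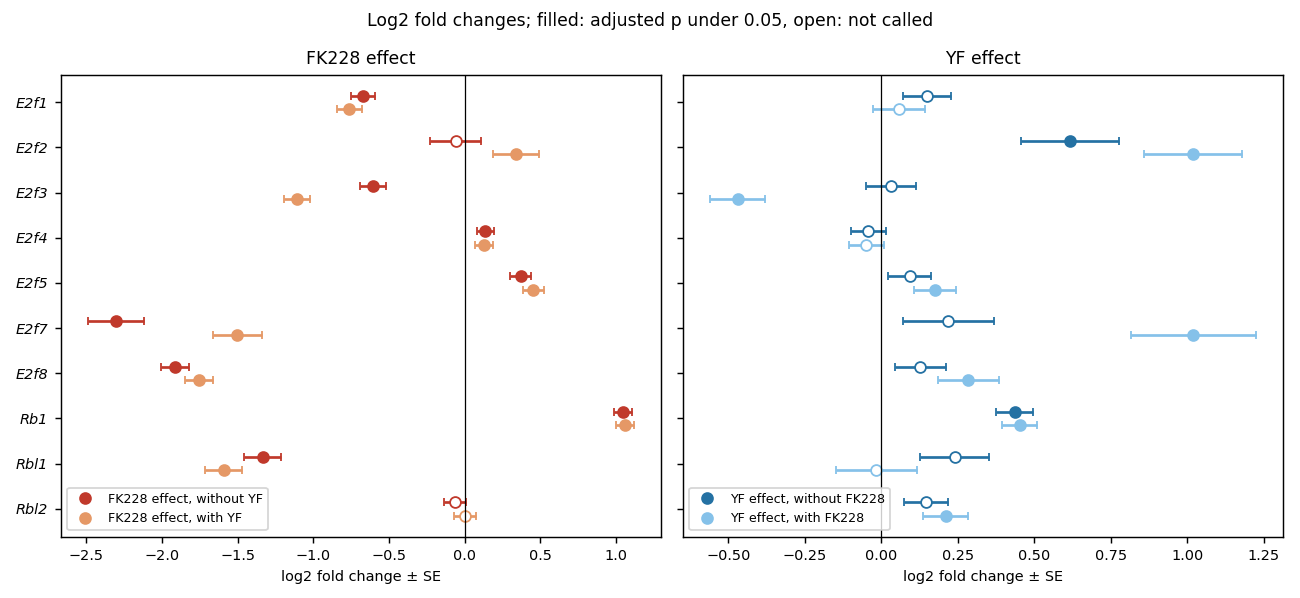
Log2 fold change ± SE of each gene for the FK228 effect (left) and the YF effect (right), each in cells without and with the other treatment, with filled points for adjusted p under 0.05. Rb1 lies near 1.04 and 1.06 for FK228 and near 0.44 and 0.45 for YF, E2f3 lies lower for FK228 in YF cells than in cells without YF, and E2f7 lies higher there.

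FK228 plus YF versus control gave the joint difference, with the same control libraries as the single treatments, and 8 of 10 genes were called (3 higher, 5 lower), beside 77.4% of all genes (38.8% higher, 38.6% lower). The libraries of 9 did not overlap, as in 78.7% of all genes. Rb1 was 2.82-fold above control (1.50 ± 0.06, adjusted p = 2.79e-15) and E2f2 was 1.94-fold above it (0.96 ± 0.16, adjusted p = 1.16e-05). E2f5 was higher by 0.55 ± 0.07. E2f8 (-1.63 ± 0.09), Rbl1 (-1.35 ± 0.12), E2f7 (-1.28 ± 0.17), E2f3 (-1.07 ± 0.09) and E2f1 (-0.61 ± 0.08) were lower. Rbl2 was not called here (0.15 ± 0.07, adjusted p = 0.0713), though it passed with RLE scaling (adjusted p = 0.0409), with DESeq2 (0.0487) and with a filter of 5 CPM (0.0218). E2f4 (0.09 ± 0.06, adjusted p = 0.169) passed only with the filter of 5 CPM (adjusted p = 0.0394).

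FK228 versus YF set the single treatments against each other, and all 10 genes were called (7 lower and 3 higher with FK228), beside 61.2% of all genes (33.3% lower, 27.8% higher). The libraries of the 2 groups did not overlap in any of the 10 genes, as in 66.8% of all genes. E2f7 (-2.52 ± 0.18), E2f8 (-2.04 ± 0.09) and Rbl1 (-1.58 ± 0.12) differed most, and the activators E2f1 (-0.82 ± 0.08), E2f2 (-0.68 ± 0.16) and E2f3 (-0.64 ± 0.08) were all lower with FK228. Rb1 was higher with FK228 by 0.61 ± 0.06, E2f5 by 0.28 ± 0.07 and E2f4 by 0.18 ± 0.06. In TPM the E2f4 libraries of these groups overlapped, at 51.5 ± 1.68 TPM with FK228 and 51.6 ± 2.32 TPM with YF. The E2f4 call ended without YF replicate 3 (0.15), and that of Rbl2 (-0.21 ± 0.07) without FK228 replicate 1 (-0.15), FK228 replicate 2 (-0.20) or YF replicate 3 (-0.14), with RLE scaling (adjusted p = 0.0533), with DESeq2 (0.0635) and with the 2 groups fitted alone (0.0548).

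The interaction, the FK228 effect with YF minus that without it, was called for E2f3 and E2f7, 2 of 10 genes beside 26.5% of all genes (11.1% higher, 15.3% lower). For E2f3 it was -0.50 ± 0.12 (adjusted p = 0.00432), since FK228 lowered it by -0.61 in cells without YF and by -1.11 in cells with YF. For E2f7 it was 0.80 ± 0.25 (adjusted p = 0.0241), since its decrease was -2.30 without YF and -1.50 with YF. The E2f7 call ended with limma-voom (adjusted p = 0.0623) and without control replicate 1 (0.60), FK228 replicate 2 (0.67), YF replicate 3 (0.75), or the replicate 1 (0.78) or replicate 3 library (0.67) of both treatments, while E2f3 kept its call under all of these. For Rb1 the interaction was 0.02 ± 0.08 with a 95% interval from -0.16 to 0.19, so a difference between its FK228 effects larger than that was outside the interval. For E2f2 it was 0.40 ± 0.23 (adjusted p = 0.211, 95% interval from -0.07 to 0.87). Rbl1 (-0.26 ± 0.17, adjusted p = 0.306) was called without control replicate 1 (-0.41, adjusted p = 0.035). Hdac1 RNA was higher in the libraries with both treatments than in those with YF alone, by the values given above, and its part in these differences was not tested.

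Across the 12 libraries the members fell into groups that moved alike, described here without a test because the groups of libraries drive the values. Log2 CPM of E2f8 and Rbl1 had a Pearson correlation of 0.98, E2f1 and E2f8 of 0.97, E2f1 and Rbl1 of 0.97, and E2f1 and E2f7 of 0.945. Rb1 and E2f5 had 0.95, Rb1 and E2f3 -0.94, and E2f3 and E2f5 -0.94. E2f2 and E2f1 had -0.01. Outside the set, the genes most like E2f7, the member with the lowest log2 fold change with FK228 among those with a mean of at least 5 CPM, were Fanca (0.990), Cenpj (0.986) and Skp2 (0.986), and 506 of 12753 genes compared passed 0.9. The genes most like Rb1, the member with the highest, were Minpp1 (0.997), Pgm2l1 (0.996) and Ghitm (0.995), and 1706 genes passed 0.9.

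The partners and the machinery around the E2F factors were read from lists of known roles. With FK228 the DP genes Tfdp1 and Tfdp2, which encode the dimer partners of the typical E2F factors, fell by -0.79 ± 0.08 and -0.81 ± 0.07. For scale, 68.8% of all genes were called with FK228, 33.2% higher and 35.5% lower. E2f6, a repressor that works without pocket proteins, was called lower (-0.22 ± 0.08, adjusted p = 0.019), a call lost without control replicate 3 (-0.20) or FK228 replicate 3 (-0.17), with DESeq2 (adjusted p = 0.0515) and with the 2 groups fitted alone (0.0873). These made 3 of 3 genes lower, beside 35.5% of all genes. Of 7 genes of MuvB and its late partners 4 were lower and none higher, beside 35.5% of all genes lower and 33.2% higher. The share called in either direction was below the 68.8% of all genes. The lower ones were Foxm1 from 99 ± 11.9 to 16.9 ± 1.1 CPM (-2.55 ± 0.09), Lin9 (-1.98 ± 0.13), Mybl2 from 19.6 ± 1.63 to 5.86 ± 0.349 CPM (-1.74 ± 0.11) and Lin54 (-1.11 ± 0.12). MuvB joins p130 and E2F4 in quiescent cells and B-MYB and FOXM1 later in the cycle.

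The genes of the kinases that switch pocket proteins off, Cdk2, Cdk4 and Cdk6, were all lower with FK228. Cdk4 went from 852 ± 26.1 to 490 ± 39.3 CPM. The genes of their cyclins moved unevenly. Of 8 cyclin and CDK genes 6 were lower and 1 higher with FK228, beside 35.5% and 33.2% of all genes, the one being Ccnd2, the gene of cyclin D2, from 23.2 ± 4.28 to 51.7 ± 3.85 CPM (1.15 ± 0.10). Ccne2 (-1.28 ± 0.22), Cdk2 (-0.94 ± 0.09), Cdk6 (-0.91 ± 0.15) and Ccnd1 (-0.37 ± 0.06) were among the lower ones, and Ccne1, the gene of cyclin E1, was not called (-0.04 ± 0.12, between -0.20 and 0.07 with 1 library left out). Of 6 tested CDK inhibitor genes 3 were higher and 2 lower, beside the same shares of all genes. The higher ones were Cdkn2a, from 65.2 ± 4.79 to 145 ± 12.3 CPM (1.15 ± 0.09), Cdkn2b (0.98 ± 0.07) and Cdkn1a. Cdkn1a moved less, from 265 ± 5.49 CPM in control to 295 ± 8.38 CPM with FK228. Cdkn1b (-0.51 ± 0.06) and Cdkn2c (-0.41 ± 0.08) were the lower ones.

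A list of 28 genes that E2F factors are known to switch on at the start of S phase was read next. With FK228, 28 of 28 were lower (median log2 fold change -1.55), beside 35.5% of all genes (median -0.02). Among them were Ccna2 (-2.61 ± 0.09), Mcm5 (-2.21 ± 0.12) and Chek1 (-2.20 ± 0.14). The list does not hold every such gene. Ccne1 and Ccne2 were counted with the cyclins above, where Ccne1 was not called with FK228 and Ccne2 was lower. Genes of the G2 and M phases were lower in 16 of 16 (median -2.47), led by Cdc20 (-2.79 ± 0.11), Plk1 (-2.74 ± 0.07), Ccnb1 (-2.69 ± 0.11) and Ccnb2 (-2.69 ± 0.08). Within YF cells FK228 again lowered 28 of 28 and 16 of 16, with medians of -1.48 and -2.83, beside 35.9% of all genes.

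With YF alone these lists stayed mostly uncalled, beside 32.6% of all genes called (18% higher, 14.6% lower). Of the 28 S phase targets 2 were higher, among them Rrm2 (0.31 ± 0.10), and none lower, with a median of 0.06. Rrm2 was no longer called when YF replicate 2 (0.22), FK228 replicate 1 (0.30), replicate 2 of both treatments (0.30), or control replicate 2 (0.22) or 3 (0.27) was left out, without a count filter (adjusted p = 0.0986) or with the 2 groups fitted alone (0.0552). The count was 10 without control replicate 1, 1 without control replicate 3 or the replicate 2 library of both treatments, and 0 without control replicate 2 or YF replicate 2. Of 16 G2 and M genes 1 was called, Nek2 (0.23 ± 0.08), and of the 7 MuvB genes 1 was, Lin54 (0.33 ± 0.11). Both calls ended without control replicate 2 (0.18 for Nek2 and 0.33 for Lin54), control replicate 3 (0.18 and 0.28) or YF replicate 2 (0.17 and 0.21), and that of Nek2 also without YF replicate 3 (0.24).

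The cyclin E genes, which were not in the S phase list, did respond to YF. Ccne1 rose from 10.8 ± 2.17 to 23.3 ± 1.41 CPM (1.10 ± 0.11) and Ccne2 from 7.47 ± 2.68 to 12.1 ± 1.73 CPM (0.70 ± 0.19). Ccnd2 (0.59 ± 0.10) and Ccnd1 (0.27 ± 0.06) were higher too, and Cdk6 (-0.93 ± 0.15) and Cdk4 (-0.39 ± 0.06) were lower, so that 5 of 8 cyclin and CDK genes were higher and 2 lower, beside 18% and 14.6% of all genes. Of the CDK inhibitors 3 of 6 were higher, beside the same 18%: Cdkn1a (0.46 ± 0.06), Cdkn2d (0.41 ± 0.08) and Cdkn2c (0.30 ± 0.08), and none lower.

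In cells with FK228, YF raised Ccne1 from 10.5 ± 0.71 to 31.2 ± 1.06 CPM (1.57 ± 0.11) and Ccne2 by 1.28 ± 0.22, and lowered Ccnd1 from 356 ± 14 to 195 ± 8.51 CPM (-0.87 ± 0.06), Cdk6 (-0.87 ± 0.16) and Cdk4 (-0.58 ± 0.06). Tfdp2 was higher by 0.32 ± 0.07, Lin54 by 0.69 ± 0.13 and Cdkn2d by 0.67 ± 0.08. By list, 3 of 8 cyclin and CDK genes were higher and 4 lower, beside 26.6% and 26.3% of all genes. Of 6 tested CDK inhibitors 3 were higher and none lower. Of the 7 MuvB genes 3 were higher and 3 lower (median -0.24), and 2 to 7 were called with 1 library left out. Of the 28 S phase targets 3 were higher and 3 lower, or 10 called with the 2 groups fitted alone, and 6 of 28 is below the 52.9% of all genes called (26.6% higher, 26.3% lower). Ccna2 (-0.64 ± 0.11), Tk1 (-0.44 ± 0.12) and Cdt1 (-0.37 ± 0.09) were the lower ones. Pcna (0.31 ± 0.10) and Uhrf1 (0.29 ± 0.11) were among the higher ones, and both lost their calls without FK228 replicate 3 (0.29 and 0.27) or the replicate 1 library of both treatments (0.26 and 0.22). The Pcna call was also lost without FK228 replicate 2 (0.27), and that of Uhrf1 without FK228 replicate 1 (0.23) or replicate 2 (0.31) or 3 (0.31) of both treatments. Without a count filter both calls ended too (adjusted p = 0.0577 and 0.0559), and that of Uhrf1 with limma-voom (0.0777). Of the G2 and M genes 12 of 16 were lower and none higher (median -0.42), beside 26.3% of all genes lower, with Ccnb2 at -0.91 ± 0.09.

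**Figure D4:**
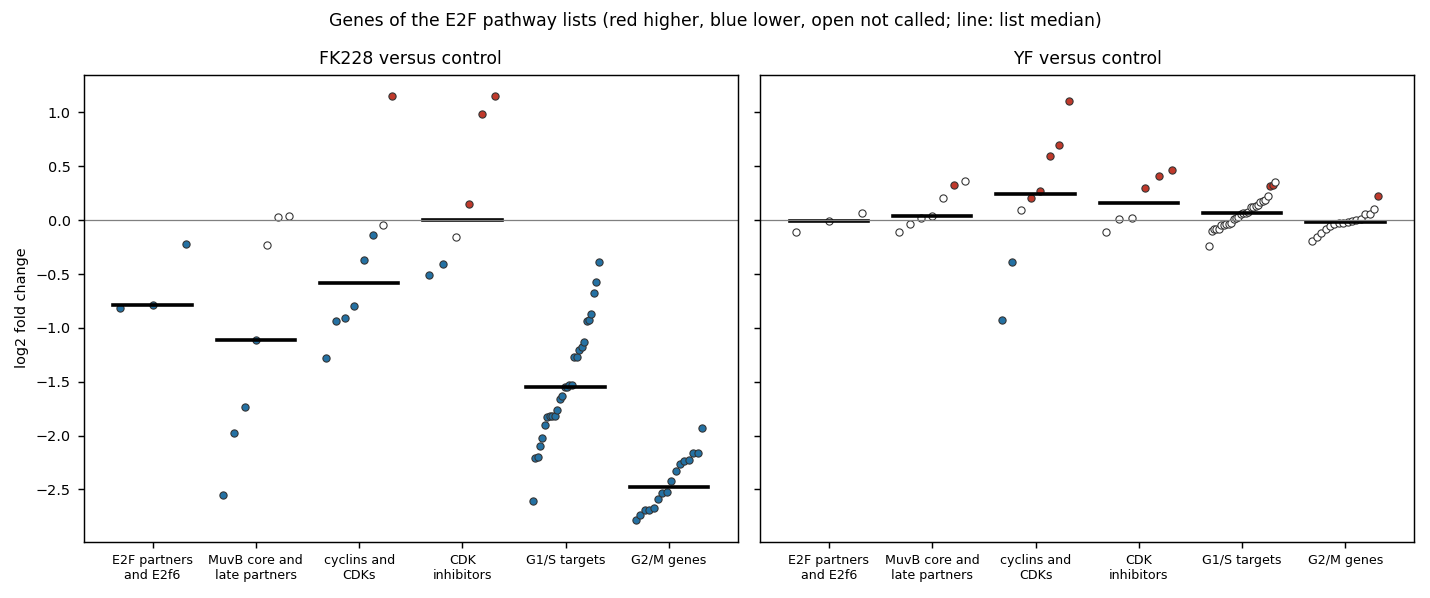
Log2 fold changes of the tested genes of 6 lists around E2F, in FK228 versus control (left) and YF versus control (right), 1 point per gene with the list median as a line. All 28 S phase and 16 G2 and M points lie below 0 on the left, on the right 2 and 1 of them are called, and Ccne1, at 1.10, is the highest point on the right.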

How the data were processed

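Total RNA, extracted with TRIzol, was sequenced as read pairs on BGISEQ, per the labels' protocols. The deposited table gives expected counts (estimated counts) per gene and library, per the file headers, and 16.6% of these values are not whole numbers. It also gives TPM and FPKM, per the file headers, which the authors scaled per length and library before deposit. Per the submitters' processing notes the tools were HISAT2 2.0.4, Bowtie2 2.2.5, RSEM 1.2.12 and DESeq2 1.4.5 with the build GRCm38.p6, without roles. Strand use, annotation and filters are not given in sources used here.

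Counts were rounded to whole numbers, filtered with filterByExpr and scaled by TMM, and edgeR 4.0.16 (R 4.3.3, limma 3.58.1) fitted a robust quasi-likelihood model with 1 term per group to all 12 libraries. P-values were adjusted by Benjamini-Hochberg over 13346 genes and called at 0.05. The SE is the size of the log2 fold change divided by the root of F, and 95% intervals take it with the fit's total degrees of freedom. TPM served for levels and shares of different genes, and for single genes to see whether the libraries of 2 groups overlapped. FPKM served only as the alternative to TPM. Alternatives were RLE scaling, no count filter, 5 CPM in 3 libraries, DESeq2 1.42.0, limma-voom, the compared groups alone, a replicate block and each library left out. The script was tested on simulated counts. Replicates of a group differed by more than counting noise, with a mean chi-square per gene of 3.58 to 21.6, so none was counted as a duplicate. The members and lists were chosen with earlier results of these data known. Named were all members, up to 4 called genes of each pathway list by size of the FK228 change at a mean of 1 CPM or more, any gene of the 4 shorter lists, and the 3 genes most like the highest and lowest member. Genes named where a count was 5 or fewer were chosen after their values were seen. Some genes of the lists are counted but not reported by name here.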

Additional observations from a re-analysis of the deposited data

Results flagged for a closer look

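The effect of FK228 differed between cells with and without YF for 2 of the 10 genes, by the interaction term of edgeR's quasi-likelihood test. For E2f3, an activator, the difference was -0.50 ± 0.12 on the log2 scale, with a larger decrease in YF cells, and the call held under every alternative tried. For E2f7, an atypical repressor, it was 0.80 ± 0.25, with a smaller decrease in YF cells, and the call ended under 6 of the alternatives. E2f7 had 8.21 to 13 CPM in control and 1.7 to 2.29 CPM with FK228, so its values rest on few counts. No group was large enough for a search for libraries that stand apart within a group.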

How the results depend on the processing

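For the 10 genes in 7 comparisons, 1234 of 1320 alternative values kept their direction and their side of the threshold, 55 lost a call, 7 gained one and 24 turned sign. In the 10 genes and the named pathway genes, the sign turned only where the value was not called. Without a count filter these were Rbl2 in FK228 plus YF versus YF (-0.0112) and the interaction of Rb1 (-0.00531). With 1 library left out the ranges that cross 0 were -0.18 to 0.0578 for E2f2 and -0.20 to 0.0732 for Ccne1 in FK228 versus control, -0.00536 to 0.10 for E2f3 in YF versus control, -0.0499 to 0.0667 for Rbl2 in FK228 plus YF versus YF, -0.14 to 0.0935 for Rbl1 in FK228 plus YF versus FK228, and -0.0449 to 0.0200 for E2f4 and -0.0307 to 0.0457 for Rb1 in the interaction. The cause was not tested. With 1 library left out, 2 to 4 members were called in YF versus control, 4 to 7 in FK228 plus YF versus FK228 and 1 to 2 in the interaction, where limma-voom also called 1. The order of the 10 genes by TPM kept 8 to 10 places in control, FK228 and YF, and FPKM kept all 10. The labels state no pairing of the replicate numbers, and none was used in the main fit. Deviations from the group means of same-numbered libraries correlated between -0.44 and 0.23. Libraries with different numbers were not compared in this way, so these values cannot decide whether the numbers pair libraries. A replicate block ended the E2f4 calls in FK228 versus control and FK228 plus YF versus YF (adjusted p = 0.0583 and 0.0707) and those of E2f5 and Uhrf1 in FK228 plus YF versus FK228 (0.052 and 0.0564), and left 7, 2, 8, 8, 6, 10 and 2 members called in the 7 comparisons in the order FK228, YF and both versus control, both versus YF, both versus FK228, FK228 versus YF, and interaction. Low counts limit E2f2 and E2f7, whose sums over 3 libraries were as low as 200 and 153 counts.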

Other observations

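The RefSeq promoter windows of the pathway lists differed in the letters they held. An E2F site was in a window of 12 of 22 S phase target genes and 1 of 13 G2 and M genes with a window, against 2.6% of 27025 genes. A CHR element was in a window of 3 of 22 and 8 of 13, against 20.2% of genes, and a CCAAT box (CCAAT, either strand) in 17 of 22 and 12 of 13, against 41.1%. Both lists were chosen for known regulation in the cell cycle, so this describes the lists and carries no test.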
